A study of Rattus norvegicus with 30 samples.

Results

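The comparison described here was between sham-operated rats taken 12 weeks after surgery and sham-operated rats taken 1 week after surgery. Its members were chosen by their titles, which give the week, a letter for control and a rat number, and they made up 10 of the 30 libraries of the series, 5 at 1 week and 5 at 12 weeks. All rats were adult female Long Evans rats (Crl:LE), older than 10 weeks, and each library came from 1 rat. Gray matter of laminae IV to VII, the intermediate laminae, was dissected on both sides from a slice at the third cervical vertebral level. The other 20 libraries came from rats with a thoracic spinal cord injury (SCI), taken at 1, 3, 6 or 12 weeks. The sham rats carried no transgene, and the sources used here do not say what the sham operation consisted of. Per the design text, 10 rats were assigned to each sham group and 5 of them were chosen for sequencing on RNA quality and quantity, so the groups are rats that had passed that choice.

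The intermediate laminae hold the interneurons that receive much of the corticospinal input, the axons by which the motor cortex drives the spinal cord, and pass it on to motor neurons. In the series this tissue stands above the lesion, and the sham rats serve as its uninjured reference. A sham group carries the effects of anaesthesia and surgery without the lesion, and in general such effects, wound inflammation and stress hormone responses among them, are strongest early and fade over weeks. A second process runs along with them, because a rat taken 12 weeks after surgery is also older than one taken after 1 week. Time since surgery, age and the day of dissection cannot be told apart in this design.

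The labels of 1 of the 10 sham libraries conflict. By title, replicate 1 of sham 1 week is a control, while its surgery field names an injured cord. The title was followed, and the main counts of the sham contrast are also given without this library. The abundance classes, principal components, distances between pairs, correlations with the injured rats and DESeq2 calls are given only with it. The mean distance of this library from the other sham 1 week libraries, the root mean square difference in log2 CPM (counts brought to the same library total) over the genes tested, was 0.436, against 0.417 to 0.456 for the other 4 libraries of its group. Its mean distance was 0.449 from the sham 12 weeks libraries and 0.47 from the SCI 1 week libraries. For the other 4 libraries these distances were 0.4 to 0.476 and 0.422 to 0.461. In replicates 2 to 5 the distance from the SCI 1 week libraries was 0.461, 0.444, 0.461 and 0.422. From their own group it was 0.456, 0.422, 0.436 and 0.417. All sham 1 week libraries thus lay slightly farther from the SCI 1 week libraries than from their own group. The 0.47 of the library with conflicting labels was the largest such distance. The gaps were small, and these distances do not settle the label.

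The files list genes by identifier and do not pair them with gene names, and 0 of their 32545 identifiers occur in the gene table used here. For that reason the genes are given by identifier, what they encode is not stated, and the tissue could not be checked against marker genes of its cell types. The same holds for gene groups, which could not be described, and no promoter or miRNA sequence could be matched to a gene.

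The sham 1 week libraries held 22.3, 10.6, 37.4, 17.1 and 21.3 M counts in replicates 1 to 5 (22.3 M stands for 22272215 counts), and the sham 12 weeks libraries 11.7, 18.8, 14.5, 13.3 and 14.2 M. The mean difference, 12 weeks minus 1 week, was -7.24 M (exact two-sided permutation test over 252 splits, p = 0.143, adjusted p = 0.222 over 4 library measures). It was -7.11 M without the library with conflicting labels (exact permutation p = 0.198), -3.32 M without sham 1 week replicate 3 and -10 M without sham 1 week replicate 2 (exact permutation p = 0.0159, not adjusted). The early group therefore included both the deepest and the shallowest of the 10 libraries. The number of genes with at least 1 count was 17967 ± 587 (SD, n = 5) at 1 week and 17553 ± 128 at 12 weeks, a difference of -414 (exact permutation p = 0.167). The difference was -332 without the library with conflicting labels (exact permutation p = 0.302), -233 without sham 1 week replicate 3 and -621 without sham 1 week replicate 2 (exact permutation p = 0.0159, not adjusted). After each library was thinned to 10.6 M counts, the depth of the shallowest, the numbers were 17291 ± 122 and 17241 ± 83.3 (exact permutation p = 0.476), and the mean difference of -50.4 genes was -3.7 without the library with conflicting labels (exact permutation p = 0.937).

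The 10 most abundant genes of each library held 11.9%, 10.2%, 12%, 9.78% and 10.1% of its counts in sham 1 week replicates 1 to 5. In sham 12 weeks they held 11.4%, 11.9%, 11.7%, 12% and 12.1%. Replicates 1 and 3 of the early group thus lay among the rats of 12 weeks and the other 3 rats lay below all of them, and the mean difference was 1.03 percentage points (exact permutation p = 0.103, adjusted p = 0.222). Without the library with conflicting labels the difference was 1.3 points (exact permutation p = 0.0397), and without sham 1 week replicate 3 it was 1.34 points (exact permutation p = 0.0238), neither adjusted. Of the 10 genes with the highest mean level over the sham rats, at 4870 to 29000 CPM, 6 had a higher fitted level at 12 weeks and 4 a lower one. Their log2 fold changes ran from -0.124 to 0.558, and 0 of the 10 had an unadjusted p under 0.05 (smallest adjusted p = 0.64 in the edgeR quasi-likelihood test).

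**Figure D1:**
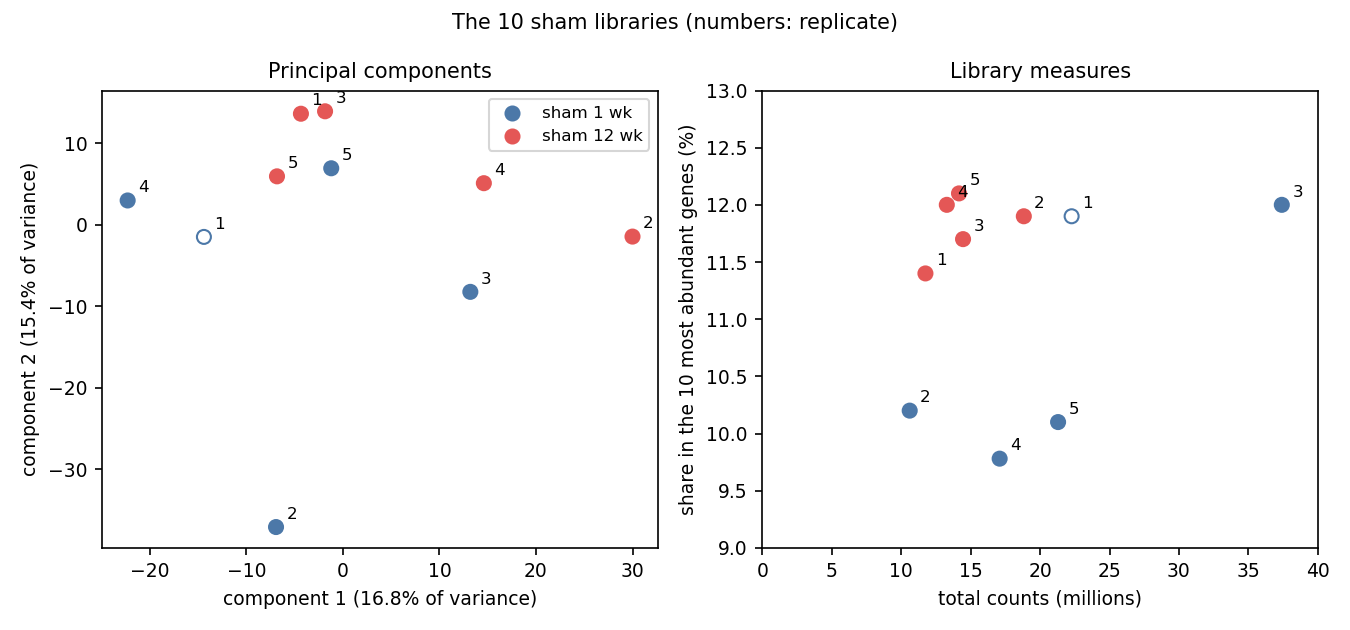
The 10 sham libraries. The left panel plots their first and second principal components, computed from log2 CPM of all genes tested, and the right panel plots total counts (in M) against the percentage of counts in the 10 most abundant genes. Each point is 1 rat with its replicate number, blue for 1 week and red for 12 weeks, and the open point is the library with conflicting labels. On the first component the groups overlap, and on the second, sham 1 week replicate 2 lies lowest at -37.1.

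As whole profiles the 2 sham groups overlapped. The distance between a rat of 1 week and a rat of 12 weeks had a median of 0.43 over 25 pairs (range 0.36 to 0.494), and the median within each group was 0.432 over 10 pairs. A pair of rats of different weeks was thus about as far apart as a pair of the same week. The groups accounted for 12.9% of the summed squared differences between the 10 rats, against a mean of 11.1% over all 252 splits of 5 against 5 (exact permutation test, one-sided, p = 0.111). When sham 1 week replicate 1 was left out the share was 13.8%, against 12.5% over 126 splits (exact permutation p = 0.167). The first principal component of the sham rats held 16.8% of their variance and the second 15.4%. On the first, the sham 1 week rats stood at -14.4, -6.93, 13.2, -22.3 and -1.21 and the sham 12 weeks rats at -4.35, 30, -1.85, 14.6 and -6.83. Rats of both weeks were found from -6.83 to 13.2, while the 3 lowest rats were of 1 week and the 2 highest of 12 weeks.

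Gene by gene, no gene passed in sham 12 weeks against sham 1 week. Of 14801 genes tested, 0 (0%) had an adjusted p under 0.05 (edgeR quasi-likelihood test, Benjamini-Hochberg adjustment, smallest adjusted p = 0.199). The count was again 0, of 14909 genes, without sham 1 week replicate 1 (edgeR, smallest adjusted p = 0.362), and with that library counted as injured it was 0 as well (edgeR, smallest adjusted p = 0.339). In the same contrast limma-voom called 0 genes, DESeq2 called 7, and edgeR called 4 when fitted on the 10 sham libraries alone. The latter fit called 0 once the library with conflicting labels was left out (edgeR, smallest adjusted p = 0.0954). In this bulk tissue, fewer cells of a type and less RNA per cell cannot be told apart.

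At the unadjusted threshold of 0.05, 1219 genes (8.24%) were found, of which 621 (4.2%) were higher at 12 weeks and 598 (4.04%) lower. The p was under 0.01 for 305 genes and under 0.001 for 40, of which 20 were higher and 20 lower. The differences were small. Among the 1219 genes the absolute log2 fold change had a median of 0.25, 153 reached 1.5-fold and 42 reached 2-fold, and over all genes the median absolute value was 0.0933. Without sham 1 week replicate 1 the count was 1066 genes, 520 higher and 546 lower (7.15%), and the number shared with the 1219 was 869. With log2 library total as a covariate, a fit that takes up the difference in depth between the groups, it was 1027 genes (6.94%), of which 860 were among the 1219.

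**Figure D2:**
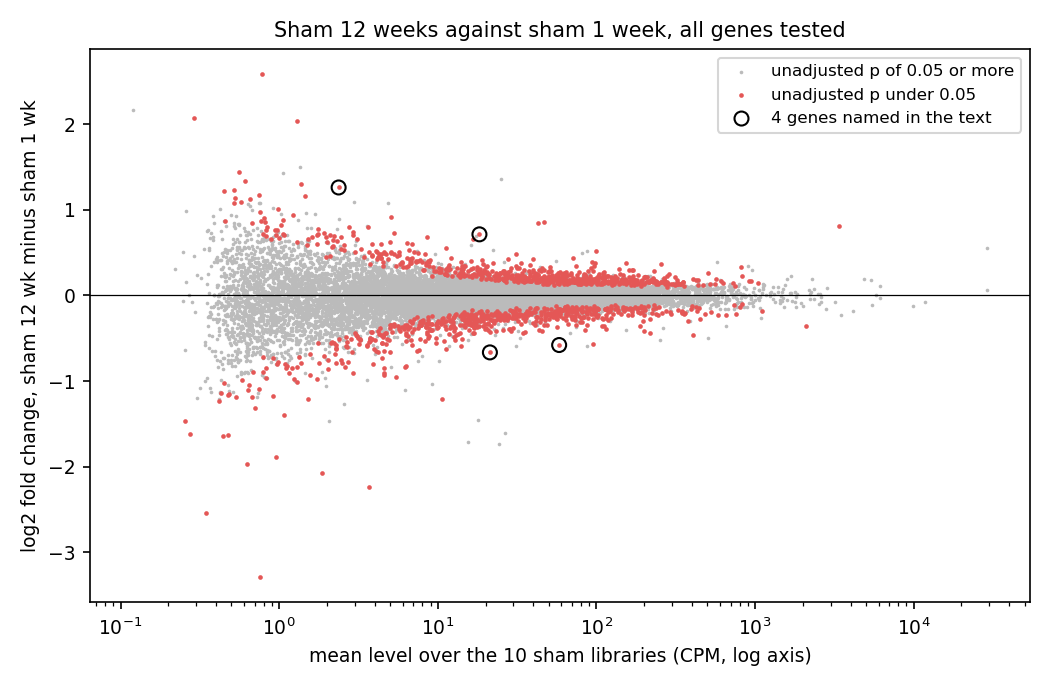
Log2 fold change, sham 12 weeks minus sham 1 week, against the mean level over the 10 sham libraries in CPM on a log axis, for the 14801 genes tested. Red points have an unadjusted p under 0.05 (1219 genes, 621 above and 598 below 0) and circles mark the 4 genes named in the text; no gene passed the adjusted threshold.

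The share of genes with an unadjusted p under 0.05 differed with abundance. It was 4.96% of the 1128 genes with a mean under 1 CPM, 6.4% of the 4091 genes from 1 to 10 CPM, 8.63% of the 7496 genes from 10 to 100 CPM and 12.2% of the 2086 genes at 100 CPM and over. The typical difference went the other way, with a median absolute log2 fold change of 0.294 in the least and 0.0645 in the most abundant class. The median standard error of the log2 fold change was 0.44 in the former and 0.0674 in the latter, so that the precision of these libraries differed several-fold between abundance classes. Among the genes at 100 CPM and over with an unadjusted p under 0.05, 155 were higher and 99 lower at 12 weeks. From 1 to 10 CPM the split was 107 higher and 155 lower. It was near even in the other classes, with 332 higher and 315 lower from 10 to 100 CPM and 27 and 29 under 1 CPM. The median log2 fold change of all genes in a class was 0.0084 at 100 CPM and over and 5.4e-05 from 10 to 100 CPM. It was -0.0275 from 1 to 10 CPM and -0.0483 under 1 CPM.

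The precision sets what differences remain possible. For 13367 of the genes (90.3%) the fold change had a 95% confidence interval that lay within 2-fold both ways, and for 11219 (75.8%) one that lay within 1.5-fold. At 100 CPM and over a 1.5-fold difference was excluded for 98.6% of genes, and from 10 to 100 CPM for 96.8%. From 1 to 10 CPM the share was 46.6%, and a 2-fold difference was excluded there for 87.1%. Under 1 CPM a 2-fold difference was excluded for 23% of genes, so that for most of them a difference of that size remains possible. Without the library with conflicting labels the shares over all genes were 88.5% for 2-fold and 73.7% for 1.5-fold.

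In 321 genes (2.17% of those tested) the levels of the 2 sham groups did not overlap. In 164 of them (1.11%) every rat of 12 weeks lay above every rat of 1 week, and in 157 (1.06%) below. Without sham 1 week replicate 1, a comparison of 4 rats with 5 in which separation is easier, 488 genes (3.3%) did not overlap.

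By a rule on p alone, the 2 genes with the smallest p per direction are named here, and none of them passed the adjusted threshold. They were chosen on these same rats, so that their separation is a description and not support for a difference.

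ENSRNOG00000054008 had the smallest p of all genes and was lower at 12 weeks. Its level was 68.7, 80.6, 75.2, 63.5 and 61 CPM in sham 1 week replicates 1 to 5 and 47.3, 54.5, 44.8, 37.8 and 48.6 CPM in sham 12 weeks replicates 1 to 5. Every rat of 12 weeks lay below every rat of 1 week. The log2 fold change was -0.58 with a standard error of 0.113 and a 95% interval of -0.81 to -0.35 (edgeR, adjusted p = 0.199). Leaving out sham 1 week replicate 1 gave -0.59 (edgeR, adjusted p = 0.362).

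ENSRNOG00000021048 was also lower at 12 weeks. It stood at 25.8, 33.2, 30.1, 23.9 and 17.7 CPM in the rats of 1 week and at 15.1, 17.6, 15.5, 18.1 and 15.6 CPM in those of 12 weeks. The lowest rat of 1 week, replicate 5, lay within the later group, while the other 4 lay above it. The log2 fold change was -0.66 with a standard error of 0.137 and an interval of -0.94 to -0.39 (edgeR, adjusted p = 0.199). Without replicate 5 it was -0.77 and passed (edgeR, adjusted p = 0.00735), whereas without the library with conflicting labels it was -0.67 (edgeR, adjusted p = 0.362). Leaving out the rat that lay within the later group favours a smaller p, so that pass is no support for a difference.

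ENSRNOG00000003062 was the gene with the smallest p among those higher at 12 weeks, and it was scarce. Its level was 1.39, 0.936, 1.01, 1.19 and 2.38 CPM at 1 week and 3.55, 2.84, 5.05, 2.81 and 2.55 CPM at 12 weeks, from 10 to 52 counts per library in the former group and 36 to 73 in the latter. The groups did not overlap, although replicate 5 of 1 week came close to the lowest rat of 12 weeks. The log2 fold change was 1.26, or 2.39-fold, with a standard error of 0.291 and an interval of 0.67 to 1.85 (edgeR, adjusted p = 0.258), and 1.25 without sham 1 week replicate 1 (edgeR, adjusted p = 0.362).

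ENSRNOG00000039759 stood at 14, 11.8, 13.5, 13.8 and 16.2 CPM at 1 week and at 20.5, 23.2, 29.4, 20.1 and 20.6 CPM at 12 weeks. The groups did not overlap, and sham 12 weeks replicate 3 was the highest rat in this gene as it was in the preceding one. The log2 fold change was 0.71 with a standard error of 0.163 and an interval of 0.38 to 1.05 (edgeR, adjusted p = 0.258). It was 0.71 without sham 1 week replicate 1 as well (edgeR, adjusted p = 0.362).

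**Figure D3:**
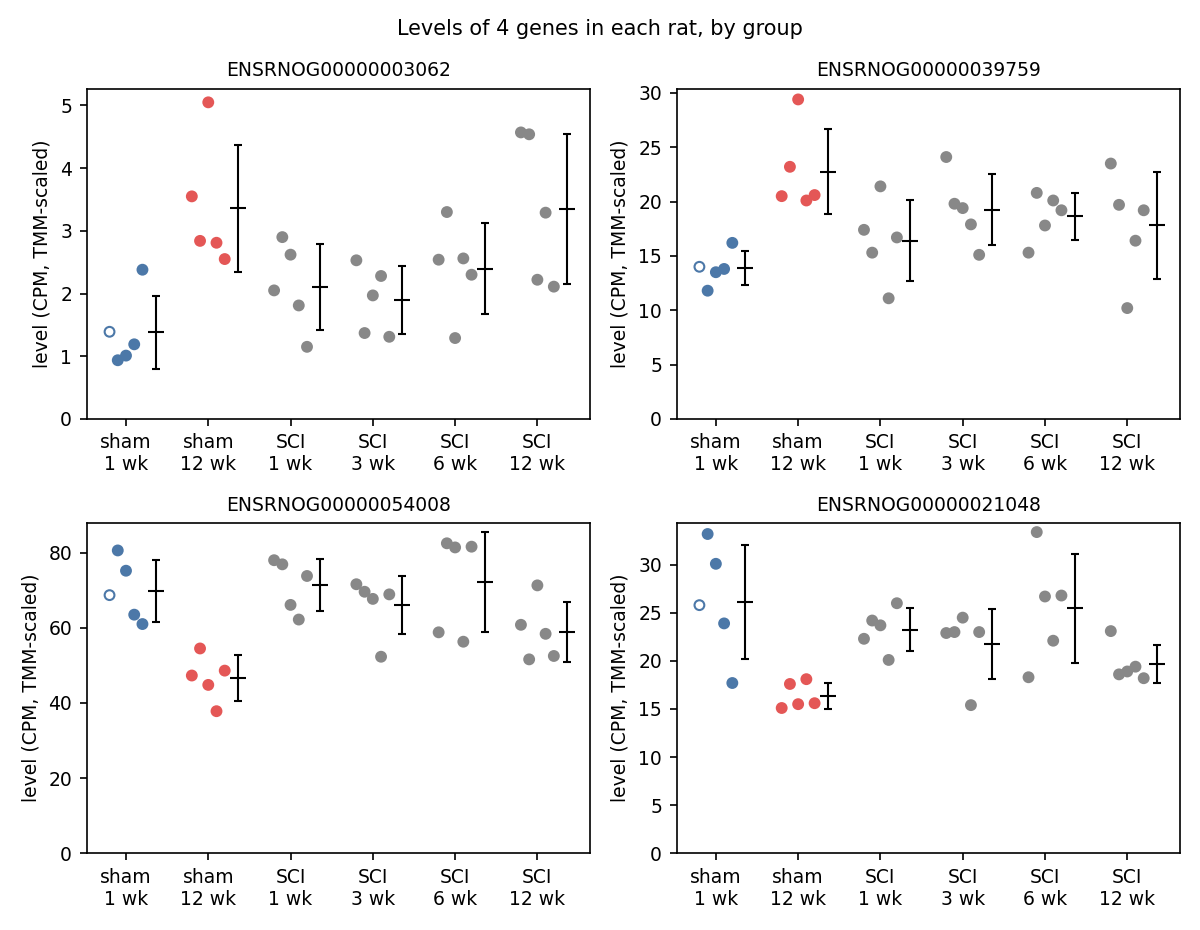
Levels in CPM (linear axes from 0) of the 4 genes with the smallest p in each direction, in each rat of the 6 groups. Points are single rats, blue for sham 1 week, red for sham 12 weeks and gray for injured rats, the open point is the library with conflicting labels, and the bars beside them give the mean and SD (n = 5). In 3 of the 4 genes the sham groups do not overlap, while in ENSRNOG00000021048 the lowest rat of 1 week, at 17.7 CPM, lies among those of 12 weeks.

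The injured rats offer a second look at time, since those of 1 and 12 weeks share no library with the sham rats. They share the fitted model, and their time course includes the injury. ENSRNOG00000054008 had a mean of 71.4 ± 6.93 CPM (SD, n = 5) in SCI 1 week, 66.1 ± 7.79 at 3 weeks, 72.1 ± 13.3 at 6 weeks and 58.9 ± 7.92 at 12 weeks, against 69.8 ± 8.13 in sham 1 week and 46.6 ± 6.07 in sham 12 weeks. The difference between injured rats of 12 and 1 weeks had the sign of that in sham rats, with a log2 fold change of -0.27 (edgeR, unadjusted p = 0.0219, adjusted p = 0.358). ENSRNOG00000003062 went from 2.1 ± 0.689 CPM in SCI 1 week to 3.34 ± 1.2 in SCI 12 weeks, a log2 fold change of 0.6 (edgeR, unadjusted p = 0.0424, adjusted p = 0.431).

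In all 4 named genes the difference had the same sign in the injured rats as in the sham rats and was smaller, and for the other 2 its unadjusted p was over 0.05. ENSRNOG00000021048 had 23.2 ± 2.21 CPM in SCI 1 week and 19.7 ± 1.98 in SCI 12 weeks, a log2 fold change of -0.24 (edgeR, unadjusted p = 0.0843, adjusted p = 0.529). ENSRNOG00000039759 had 16.4 ± 3.73 and 17.8 ± 4.92 CPM, a log2 fold change of 0.1 (edgeR, unadjusted p = 0.556, adjusted p = 0.875). Whether the time difference itself differed between injured and sham rats was tested as an interaction, and none of the 4 genes passed. The edgeR adjusted p was 0.625 for ENSRNOG00000054008, 0.694 for ENSRNOG00000003062, 0.57 for ENSRNOG00000021048 and 0.424 for ENSRNOG00000039759. The unadjusted p of that edgeR test was 0.0627, 0.116, 0.0362 and 0.0127 in the same order. Since the genes were picked for their difference in the sham rats, a smaller value in other rats is favoured by that choice.

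Across all genes the time differences of sham and injured rats were weakly related. Over the 14801 genes, which are not independent replicates, the 2 sets of log2 fold changes gave 0.0916 as Pearson r and 0.0731 as Spearman rho, given as descriptions without a test. For the 9582 genes with a mean of at least 10 CPM the r was 0.167. The sign was the same for 53.3% of all genes, for 57.1% of the 1219 genes with an unadjusted p under 0.05 in sham rats (696 genes) and for 62% of the 305 with a p under 0.01 (189 genes). Of the 1219 genes, 91 had an unadjusted p under 0.05 in the injured rats with the same sign and 87 with the opposite sign, in all 14.6%, against 11% of all genes. Of the 305 genes, 36 had such a p with the same sign and 17 with the opposite sign, in all 17.4%. Among all 14801 genes, 876 had such a p with the same sign and 751 with the opposite sign. Without sham 1 week replicate 1 the share with the same sign was 52.6% of 1066 genes, down from 57.1%. Such a drop was not particular to that library. The share was 52.7% without sham 1 week replicate 2 and 52.8% without sham 12 weeks replicate 4. Leaving out other sham rats gave up to 62.2%.

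**Figure D4:**
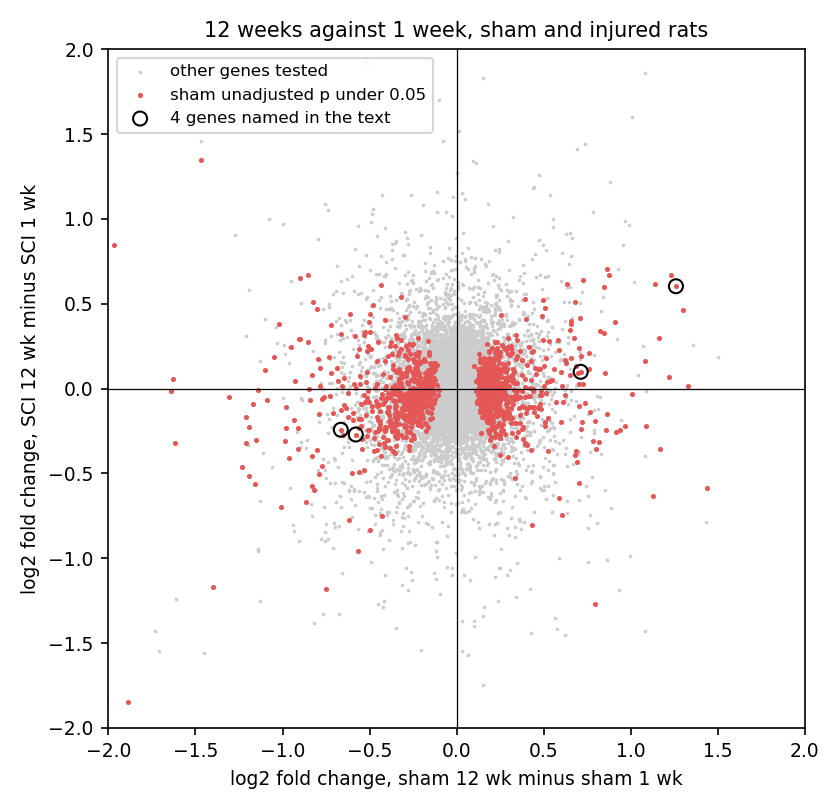
Log2 fold change of 12 weeks minus 1 week in sham rats (horizontal axis) and in injured rats (vertical axis) for all genes tested; red points have an unadjusted p under 0.05 in the sham rats and circles mark the 4 named genes. The axes are limited to 2 in each direction, which leaves out 12 genes, and the cloud shows little slope (Pearson r = 0.0916 over all genes).

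Of the 321 genes whose sham groups did not overlap, 191 (59.5%) had the same sign in the injured rats, against 53.3% of all genes. An unadjusted p under 0.05 there was found with the same sign in 39 and with the opposite sign in 15 of the 321 genes. Among all genes tested these counts were 876 and 751. In all this was 16.8% of the 321 genes, against 11% of all genes. In the injured rats of 12 and 1 weeks, 318 genes (2.15%) did not overlap, close in number to the 321 of the sham rats. In 6 genes both pairs of groups were separated in the same direction, 1.87% of the sham list and 1.89% of the injured list. In 5 genes they were separated in opposite directions. The 2.15% counts both directions and is thus no base for a share in the same direction. For the 1.89%, the base is the share of all genes separated in 1 direction in the sham rats, 1.11% higher and 1.06% lower. With counts this small, no result is drawn from the overlap.

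Read in the other direction, 12 genes (0.0811%) passed between injured rats of 12 and 1 weeks. The sham rats are not in that contrast and entered the choice only through the filter, the scaling and the spread of the common fit. The count was 9 without sham 1 week replicate 1 and 4 with that library counted as injured, and it was 65 with DESeq2, 52 with DESeq2 without its filter on mean count, 24 at a threshold of 0.1 and 19 with limma-voom. In the sham rats 9 of the 12 had the same sign and 2 had an unadjusted p under 0.05, with 0 passing the adjusted threshold (edgeR, smallest adjusted p = 0.428). Among all genes tested the sign was the same for 53.3%, and 8.24% had an unadjusted p under 0.05 in the sham rats. In absolute log2 fold change the 12 had a median of 0.456 in the injured rats and of 0.0712 in the sham rats, where the median of all genes was 0.0933. In the interaction 10 of the 12 had an unadjusted p under 0.05, a difference that their choice in the injured rats favours. Over all genes the interaction called 0 (0%), with 1240 genes (8.38%) at an unadjusted p under 0.05 (edgeR, smallest adjusted p = 0.0548), while DESeq2 called 24 and limma-voom 2. The interaction called 1 gene without sham 1 week replicate 1.

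When the time differences of sham and injured rats were averaged, which sets 10 rats of 12 weeks against 10 of 1 week, 13 genes (0.0878%) passed, of which 4 were higher and 9 lower at 12 weeks (edgeR, smallest adjusted p = 0.0142). This comparison was added after the sham contrast had been seen. Of the 4 named genes it included ENSRNOG00000054008, with a mean log2 fold change of -0.42 (edgeR, adjusted p = 0.0168), and ENSRNOG00000021048, with -0.45 (edgeR, adjusted p = 0.0492). ENSRNOG00000003062 had 0.93 (edgeR, adjusted p = 0.052) and ENSRNOG00000039759 had 0.41 (edgeR, adjusted p = 0.186). Both pairs of groups enter this comparison, so that the sham rats that chose the 4 genes also count in it. In the sham rats alone the 13 genes had absolute log2 fold changes from 0.0706 to 0.752 with a median of 0.275, and 11 had an unadjusted p under 0.05. Among all genes tested the share with such a p was 8.24%. Because the sham rats entered the choice of the 13 genes, a small p in them is favoured by that choice. The count of 13 was 9 without sham 1 week replicate 1, 7 with that library counted as injured, and 23 without sham 12 weeks replicate 4. It was 73 with DESeq2, 41 at a threshold of 0.1 and 27 with the replicate number as a block.

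**Figure D5:**
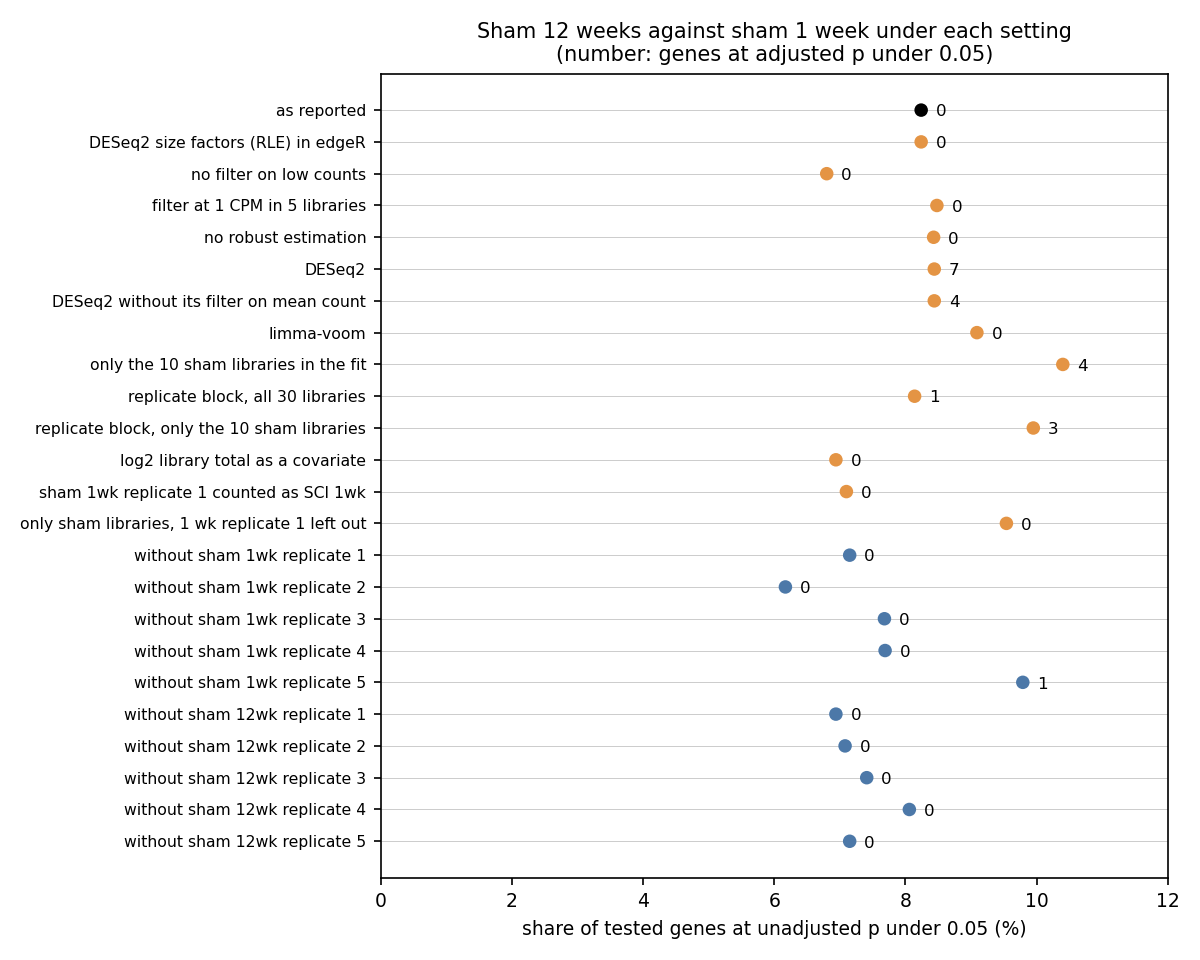
Share of tested genes with an unadjusted p under 0.05 in sham 12 weeks against sham 1 week (horizontal axis, percent) under each setting, with the number of genes past the adjusted threshold beside each point. Black is the result as reported (8.24%), orange points change the processing and blue points leave out 1 rat; the share runs from 6.17% without sham 1 week replicate 2 to 10.4% with only the 10 sham libraries in the fit.

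Single rats moved the counts of the sham contrast in both directions. The number of genes with an unadjusted p under 0.05 was lowest without sham 1 week replicate 2, the shallowest of the 10 libraries, at 921 genes (6.17%). It was highest without sham 1 week replicate 5, at 1462 genes (9.79%), the only omission that gave a gene past the adjusted threshold, namely ENSRNOG00000021048. Mean depth differed between the groups by -7.24 M counts, 12 weeks minus 1 week, with overlapping ranges (exact permutation p = 0.143). The part of depth in the result was tested only by the covariate given above.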

How the data were processed

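The authors deposited raw counts per gene identifier, 1 table per library. Per the submitters' processing notes, STAR 2.5.3a, Trimmomatic, Subread 1.2.6, featureCounts and bcl2fastq 2.19.05 were used with genome build Rnor_6.0. Their role and order, the annotation, the strand setting and the treatment of multi-mapping reads are not stated, so overlapping and near-identical genes are uncertain. Per the labels' protocols, the libraries were strand-specific, from total RNA without its ribosomal part.

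The deposited counts of all 30 libraries (6.46 to 37.4 M each) were fitted together with edgeR 4.0.16 in R 4.3.3 (robust quasi-likelihood, TMM factors, filterByExpr, no covariate), so that the 6 groups share 1 spread. After the filter 14801 of 32545 genes were tested. Adjustment was by Benjamini-Hochberg over all genes tested (threshold 0.05), and a standard error is the fold change over the root of its F statistic. Levels are CPM (counts scaled to a common total) after TMM scaling. Distances and components rest on log2 CPM, prior count 2. Single values were compared by exact permutation tests. The fit was tested on simulated counts.

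Groups and replicate numbers came from the titles. Over 20 pairs of libraries within the sham groups, the chi-square per degree of freedom was 4.82 to 32.3 (genes with at least 100 counts in the pair), so no pair agreed within sampling noise. The deviations of same-numbered sham rats from their group means correlated between -0.132 and 0.0387, and the labels do not pair the rats. The named genes were the 2 per direction with the smallest p, the rule for identifiers without symbols. The members of the comparison and the rules were chosen with earlier results of these data known. Planned gene lists, cell type markers, shares of mitochondrial and hemoglobin genes and a covariate for white matter were not run, because no identifier could be given a name. Alternatives were other size factors, filters, tools (DESeq2 1.42.0, limma 3.58.1) and thresholds, fewer libraries, a replicate block and depth as a covariate. The thinning, the mean of both time contrasts, DESeq2 without its filter on mean count and the sham-only fit without the conflicting library were chosen after seeing the data.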

Additional observations from a re-analysis of the deposited data

Results flagged for a closer look

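In sham 12 weeks the number of genes with at least 1 count was 17776 in replicate 2, the deepest library of its group at 18.8 M counts, while the other 4 rats lay between 17448 and 17520. The gap to the nearest rat was 0.78 of the range of the group, above the critical ratio of 0.71. After thinning to equal depth the same library had 17157 genes, the lowest of its group, against 17181 to 17358 in the others. Such gaps were looked for in 20 sets (library measures, 2 principal components and the 4 named genes in each sham group) and 1 was found, where chance flags about 1 such set in 20.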

How the results depend on the processing

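The count of 0 genes in sham 12 weeks against sham 1 week was also 0 with other size factors, both other filters, no robust estimation, limma-voom, a threshold of 0.1, library total as a covariate and the library with conflicting labels counted as injured. DESeq2 called 7 genes, 4 of them the named genes, and 4 without its filter on mean count, and edgeR called 4 with only the 10 sham libraries in the fit. With the replicate number as a block 1 gene passed in all 30 libraries and 3 in the 10 sham libraries, and since the rats share only a number, this is no paired result; no rat of either sham group correlated best with its own number. Leaving out 1 sham rat gave 0 to 1 genes called, 921 to 1462 at an unadjusted p under 0.05, 10870 to 11063 and 13068 to 13199 whose interval excludes 1.5-fold and 2-fold, and 485 to 842 with the same sign in injured rats. The interaction called 0 to 2 genes in this way, 1 without robust estimation, 24 with DESeq2, 5 with DESeq2 without its filter, 2 with limma-voom and 3 at a threshold of 0.1. The mean of both time contrasts called 9 to 23 genes when 1 sham rat was left out, 73 with DESeq2 with or without its filter, 41 at a threshold of 0.1, 27 with the replicate block and 7 with the conflicting library counted as injured. The causes were not tested. The log2 fold changes of the 4 named genes kept their sign in all 23 settings that gave a value. The adjusted p was under 0.05 in 5 of these settings for ENSRNOG00000054008 and in 3 for ENSRNOG00000021048. For ENSRNOG00000039759 it was so in 3 and for ENSRNOG00000003062 in 1. The settings reuse the rats on which these genes were chosen, so these passes are no support for a difference. Leaving out 1 rat, the difference in total counts ran from -10 to -3.32 M (exact permutation p from 0.0159, without sham 1 week replicate 2, to 0.278), in genes detected from -621 to -233 (p from 0.0159 to 0.333), at equal depth from -88 to -3.7, and in the share of the 10 most abundant genes from 0.772 to 1.34 points. The covariate for white matter was not run. Intervals cover the spread between these rats.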

Other observations

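Measured as the SD of each gene, the spread between rats was on the median larger in sham 1 week than in sham 12 weeks. The median distance between whole profiles was 0.432 within each of the groups. The median over genes of the SD of log2 CPM was 0.164 at 1 week and 0.143 at 12 weeks, and the SD was larger at 1 week for 58.4% of the genes tested. Without sham 1 week replicate 2 the share was 52.3% and the median SD 0.15, and leaving out any other rat of that group gave 55.5% to 56.5%. The shares are descriptions without a test, since genes are not independent of each other.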
